A study of Saccharomyces cerevisiae with 6 samples.

Results

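Transcripts of 33 genes for ergosterol synthesis, sterol uptake, steryl ester turnover and sterol export were followed in Saccharomyces cerevisiae, baker's yeast, as cultures grown without oxygen were given air. The genes were chosen by name from these pathways, with earlier results of these data known. All 33 were found, 1 array feature each, among 6470 genes or unnamed features. They comprised 7 mevalonate and isoprenoid steps, 5 sterol steps that consume oxygen, 9 other sterol steps, 2 electron donors, 3 uptake and transport genes, 2 genes of ester formation, 3 of ester hydrolysis and 2 of export. The list is not complete: HMG1 and HMG2 for HMG-CoA reductase, and ATF2 and SAY1 of sterol acetylation, were placed among related genes. Per the labels, cells grew to exponential phase in sealed, chemically reduced bottles of synthetic complete medium. Ergosterol, unsaturated fatty acids and amino acids had been added, so the control cells too had an outside supply of sterol. Part of each culture was taken at 0 min as the anaerobic control, and the 0 min RNA was pooled. Other cells were aerated for 5, 10, 20, 60 or 120 min before RNA extraction, and each aerated RNA was hybridised against the pool on 2-colour arrays. The labels used here name no strain.

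Each time is 1 sample, which the submitters condensed from a dye-swap pair of arrays, and a sixth sample is the pool hybridised against itself. Each value is a log2 ratio, with the aerated RNA over the anaerobic pool, so 0 is the level of the pool and 1 is a 2-fold higher level. The direction is likely, from the sample titles, and is not settled by the labels, which list both dyes for both channels. The log base is inferred from 1 deposited value. Without replicates at a time, a single value carries no error and no test, and precision is limited by the few arrays. A ratio from a whole culture cannot tell less transcript in every cell from fewer cells that carry it. Of the 33 genes, 31 had a value at all 5 times and 24 in the self-hybridisation. The 60 min sample stood apart, with a median absolute deviation over all genes of 0.551 against 0.183 to 0.243 in the other aerated samples and 0.241 in the self-hybridisation, so its values are read beside that wider spread. Labels of 2 samples conflict: the extraction text at 60 min speaks of 20 min, and the description at 5 min is that of the self-hybridisation. As a check of the labelled condition, HEM13, a heme synthesis gene made at a high level without oxygen, had log2 ratios of 1.32, -0.92, -2.66, -1.71 and -3.06 at 5, 10, 20, 60 and 120 min. CYC1, the aerobic cytochrome c gene, had -1.19, 1.76, 3.16, 2.61 and 0.69. DAN1 and TIR1, cell wall genes made without oxygen, stood at 1.96 and 2.24 at 5 min and at -3.77 and -4.25 at 10 min. The 5 min sample was thus on the other side of the pool from the later samples for all 4 genes. Over all genes it correlated at 0.382 with the 10 min sample and at 0.151, 0.025 and 0.030 with 20, 60 and 120 min (genes are not independent replicates), and a turned ratio would change these signs. Every 5 min value below holds for the direction in its title, and the main counts that rest on it are also given with the 5 min ratio turned, an alternative chosen after seeing the data.

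Ergosterol is the main sterol of yeast membranes. Its carbon comes from acetyl-CoA through mevalonate and isoprenoid diphosphates to squalene, and none of these steps needs oxygen. Squalene is then oxidised, closed into lanosterol and trimmed to ergosterol, and several of these reactions use molecular oxygen and heme or iron enzymes, which is why cells without oxygen must import sterol. Anaerobic yeast takes up sterol through the membrane transporters Aus1 and Pdr11, stores the surplus as steryl esters, and controls many ERG genes through the sterol-sensing activators Upc2 and Ecm22.

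**Figure D1:**
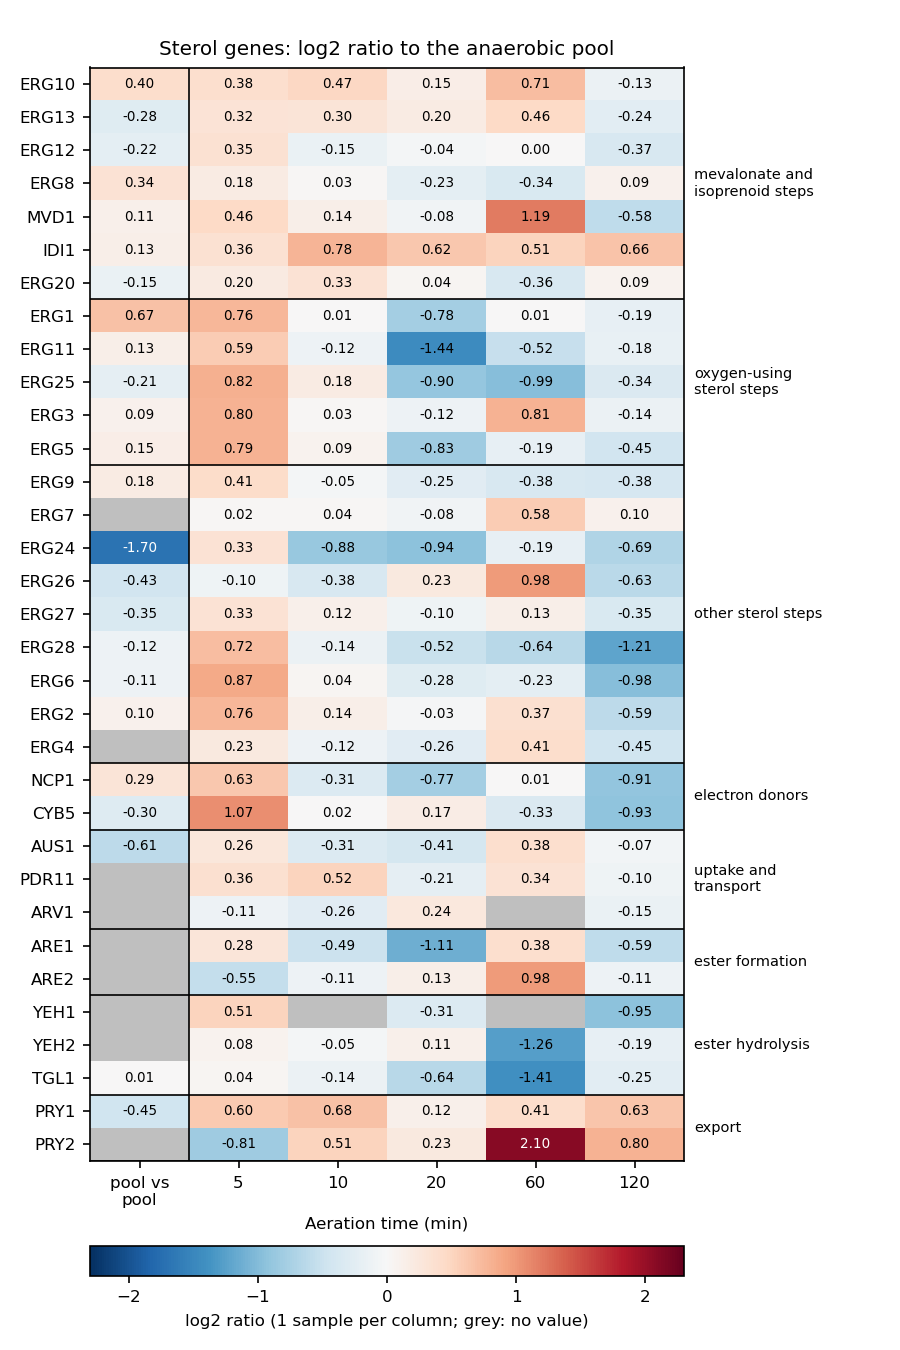
Log2 ratio to the anaerobic pool (colour and printed value) of each of the 33 sterol genes, in rows grouped by role, in the pool against itself and at 5, 10, 20, 60 and 120 min of aeration, in columns of 1 sample each; grey marks no value. The 5 oxygen-using steps are all above 0 at 5 min and all below 0 at 20 and 120 min, and ERG11 has the lowest aerated value of them, -1.44 at 20 min.

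The oxygen-using steps had the widest course, by their median, of the 3 groups of synthesis steps, above the pool at 5 min, near its level at 10 min and below it at 20 min. Their medians spanned 1.62, against 0.93 for the other sterol steps and 0.59 for the mevalonate steps. With the 5 min ratio turned, or without that sample, the span was 0.85 against 0.72 for the other sterol steps, while that of the mevalonate steps was 0.81 turned and 0.59 without it. Their median log2 ratio was 0.79, 0.03, -0.83, -0.19 and -0.20 at 5, 10, 20, 60 and 120 min, beside 0.13 in the self-hybridisation. The median of all genes was between -0.013 and 0.091 in the aerated samples. At 5 min, 5 of the 5 genes were among the top 5% of genes (5.00% of all genes by construction), and at 20 min 4 of the 5 were among the bottom 5% (5.01%). These ranks do not depend on the log base or on how a sample is scaled, but with the 5 min ratio turned all 5 would be among the bottom 5% at that time. The 20 min ranks do not involve the 5 min sample.

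ERG11 encodes lanosterol demethylase, a cytochrome P450 that needs heme and oxygen and is the target of azole drugs. Its log2 ratios were 0.59, -0.12, -1.44, -0.52 and -0.18 at 5, 10, 20, 60 and 120 min, and 0.13 in the self-hybridisation. The 20 min value is a 2.72-fold lower level than the pool, and no other sterol gene was as low at that time. It was 1.27 higher at 120 min than at 20 min, the largest such difference of the 33 genes. ERG25 encodes the oxidase that removes the methyl groups next to the sterol hydroxyl, with an iron centre. It stood at 0.82, 0.18, -0.90, -0.99 and -0.34, and at -0.21 in the self-hybridisation, so it was near its lowest at both 20 and 60 min.

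ERG1 encodes squalene epoxidase, the first step to use oxygen. Its values were 0.76, 0.01, -0.78, 0.01 and -0.19, with 0.67 in the self-hybridisation. That last value was higher than 96.3% of genes in the control array, so the 5 min value of ERG1 is close to the deviation seen with no difference in RNA. ERG5, the other cytochrome P450, which desaturates the sterol side chain, stood at 0.79, 0.09, -0.83, -0.19 and -0.45, and at 0.15 in the self-hybridisation. ERG3, which desaturates the sterol ring, had 0.80 at 5 min like the others and 0.03 at 10 min, but only -0.12 at 20 min, a value above 35.6% of genes. It was at 0.81 at 60 min and -0.14 at 120 min, and at 0.09 in the self-hybridisation. The 60 min value lay above 82.9% of genes in that widely spread sample.

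NCP1 and CYB5 pass electrons to these enzymes. NCP1, the cytochrome P450 reductase gene, had 0.63, -0.31, -0.77, 0.01 and -0.91 through the 5 times and 0.29 in the self-hybridisation. CYB5, the cytochrome b5 gene, had 1.07, 0.02, 0.17, -0.33 and -0.93, and -0.30 in the self-hybridisation. CYB5 was the highest of the 33 genes at 5 min and the only one at least 2-fold above the pool then, where 1.08% of all genes were that high. Both donors were among the bottom 5% of genes at 120 min (5.01%), while at 20 min NCP1 was and CYB5 was not. The median of the 2 donors was 0.85 at 5 min and -0.92 at 120 min, a wider span than that of the oxygen-using steps as deposited.

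**Figure D2:**
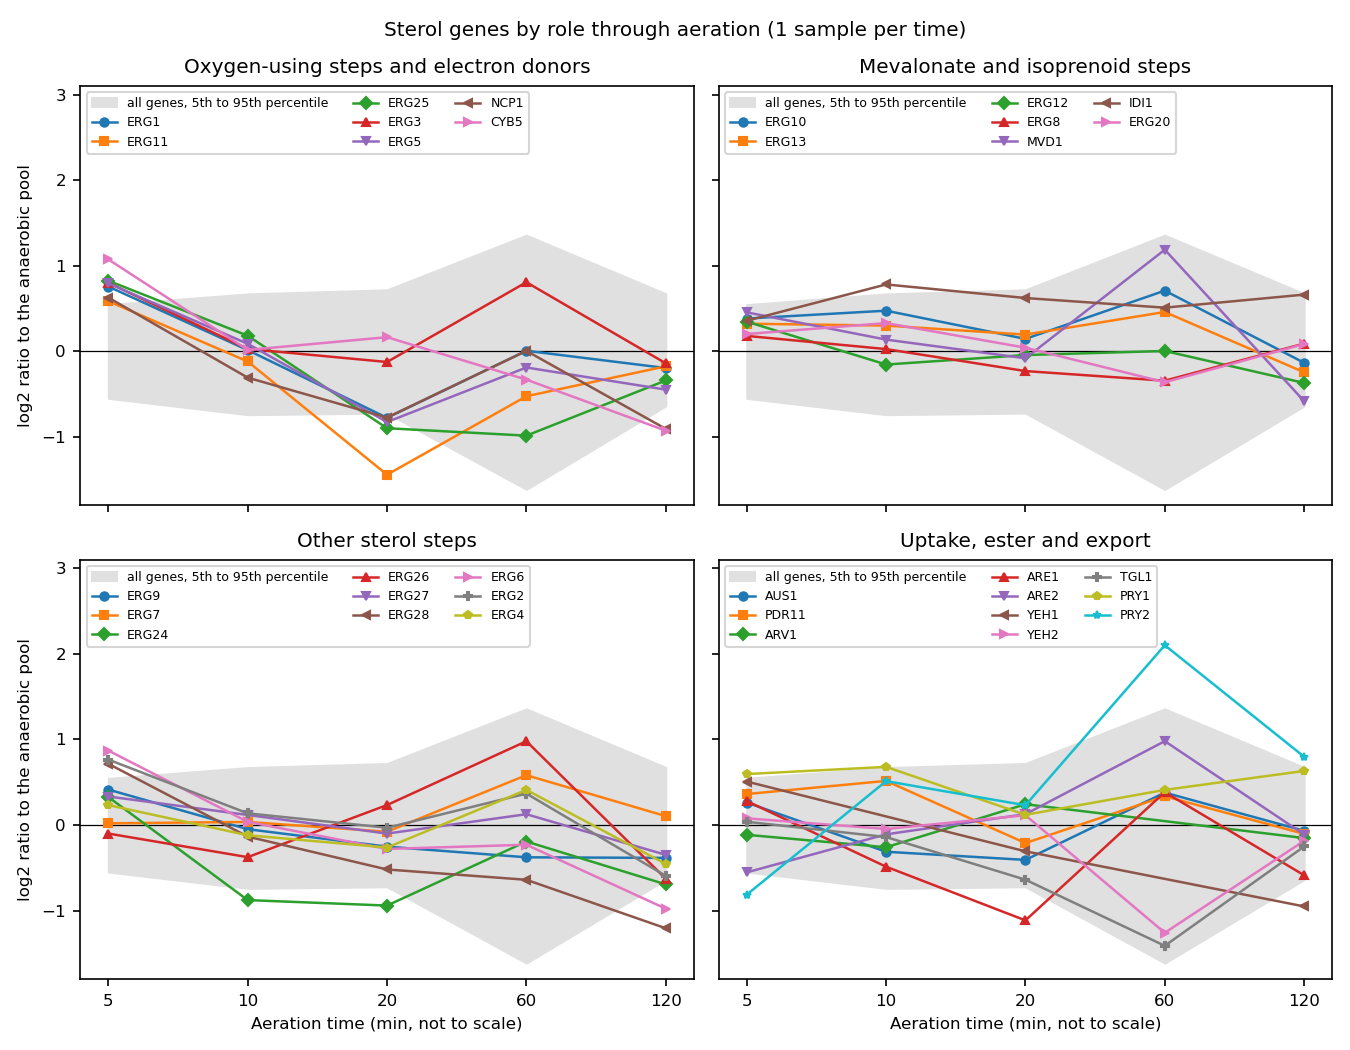
Log2 ratio to the anaerobic pool against aeration time for each sterol gene, in 4 panels by role; each point is 1 sample, lines join the points of a gene across missing values, and the grey band spans the 5th to 95th percentile of all genes. At 5 min the oxygen-using steps and donors lie above the band, from 0.59 to 1.07, while the mevalonate steps lie inside it, and the band is widest at 60 min.

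The 9 other sterol steps had a weaker course of the same kind up to 20 min, and at 120 min they had a lower median than the oxygen-using steps. Their median was 0.33 at 5 min with 8 of 9 above 0, -0.05 at 10 min, -0.25 at 20 min with 1 of 9 above 0, 0.13 at 60 min and -0.59 at 120 min with 1 of 9 above 0. Of all genes, 50.1%, 49.8% and 48.6% were above 0 at 5, 20 and 120 min. ERG6, which adds the side-chain methyl group typical of fungal sterols, was the highest of the 9 at 5 min at 0.87. Its later values were 0.04, -0.28, -0.23 and -0.98, with -0.11 in the self-hybridisation. ERG28, a scaffold that holds the demethylation enzymes together, had 0.72, -0.14, -0.52, -0.64 and -1.21, and -0.12 in the self-hybridisation. It was the only one of the 33 genes at least 2-fold below the pool at 120 min, where 1.72% of all genes were. ERG28, ERG6 and ERG24 were among the bottom 5% at that time.

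ERG24, the sterol reductase that follows lanosterol demethylation, was the lowest of the 9 at 10 and 20 min. It stood at 0.33, -0.88, -0.94, -0.19 and -0.69, but it was also at -1.70 in the self-hybridisation, lower than in any aerated sample. It was the only sterol gene at least 2-fold from 0 in that control, where 2.98% of genes were 2-fold lower, so its low aerated values are not beyond that deviation. ERG2, the sterol isomerase gene, was at 0.76 at 5 min. With ERG6 and ERG28 it made 3 of the 9 among the top 5% then (5.00% of all genes). Both donors and PRY1 were there too, and 11 of the 33 genes in all. That rank at 5 min was thus not particular to the oxygen-using steps. ERG26, a dehydrogenase of the same demethylation complex as ERG25, was the only one of the 9 below 0 at 5 min and the only one above 0 at 20 min. Its log2 ratios were -0.10, -0.38, 0.23, 0.98 and -0.63 through the 5 times, and -0.43 in the self-hybridisation. ERG7, lanosterol synthase, stayed from -0.08 to 0.10 at 4 times and was at 0.58 at 60 min. The remaining ERG9, ERG27 and ERG4, for squalene synthase, a ketoreductase and the last reductase of the pathway, lay between -0.45 and 0.41.

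The 7 listed mevalonate and isoprenoid steps, which leave out the HMG-CoA reductase genes, did not share the low values at 20 min. Their median was 0.35, 0.30, 0.04, 0.46 and -0.13 at 5, 10, 20, 60 and 120 min, and 0.11 in the self-hybridisation. All 7 were above 0 at 5 min, within 0.18 to 0.46, yet none was among the top 5% of genes. None of the 7 was among the bottom 5% at any of the 5 times. Of the reductase genes, kept among the related genes below, HMG2 was at -1.05 at 20 min, above only 2.32% of genes. HMG1 was at 0.58 at 5 min, above 95.6% of genes. IDI1, which interconverts the isoprenoid building blocks, was above the pool throughout, at 0.36, 0.78, 0.62, 0.51 and 0.66, beside 0.13 in the self-hybridisation, and was the highest of the 7 at 10, 20 and 120 min. MVD1, which makes the first of those building blocks from mevalonate diphosphate, was at 0.46, 0.14, -0.08, 1.19 and -0.58, with 0.11 in the self-hybridisation. Its 60 min value was at least 2-fold higher than the pool, as were 11.4% of genes in that sample. The other 5, ERG10, ERG13, ERG12, ERG8 and ERG20, which make acetoacetyl-CoA, HMG-CoA, mevalonate phosphates and farnesyl diphosphate, lay between -0.37 and 0.71.

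Set against each other, the median of the oxygen-using steps minus that of the mevalonate steps was 0.45, -0.27, -0.87, -0.65 and -0.06 at 5, 10, 20, 60 and 120 min, and 0.02 in the self-hybridisation. The pool does not cancel in these differences. Averaged over the times the difference was -0.28 ± 0.51 (SD, n = 5), smaller than its spread, and its sign changed between 5 and 10 min. It was -0.46 without 5 min or with the 5 min ratio turned, and -0.13 without 20 min. Against the other sterol steps the difference was 0.46 at 5 min, -0.57 at 20 min and 0.40 at 120 min, with a mean of 0.01 ± 0.45 (SD, n = 5) that took either sign, from -0.10 to 0.16, when 1 time was left out, and was -0.17 with 5 min turned. Against the 10 uptake, ester and export genes it was 0.62 at 5 min and -0.78 at 20 min, with a mean of -0.13 ± 0.56 (SD, n = 5), which was -0.32 without 5 min, -0.20 without 10 min, 0.03 without 20 min and -0.02 without 60 min. It was -0.38 with the 5 min ratio turned.

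The pool cancels in the difference between the 20 and 5 min samples where both ratios run the same way. From 5 to 20 min 9 of the 33 genes were at least 2-fold lower, where 3.65% of all genes were. They were ERG11 at -2.03, ERG25 at -1.72, ERG5 at -1.62, ERG1 at -1.53, NCP1 at -1.40, ARE1 at -1.39, ERG24 at -1.27, ERG28 at -1.23 and ERG6 at -1.15. If the deposited values were log2 and not natural logs, 4 of the 33 would pass and 1.25% of all genes. With the 5 min ratio turned, 0 of the 33 were that much lower, against 4.21% of all genes, and ERG11 was at -0.86. ERG3 and CYB5, at -0.92 and -0.91, were just short of 2-fold. The 7 listed mevalonate steps were between -0.54 and 0.27, and HMG2, outside that list, was at -1.43. From 5 to 120 min 10 of the 33 were at least 2-fold lower, against 3.31% of all genes. The largest such differences were -2.0 for CYB5, -1.92 for ERG28 and -1.85 for ERG6, and ERG11, at -0.76, was not among the 10. With the 5 min ratio turned the count was 0, against 3.38% of all genes, and these 3 differences were 0.15, -0.49 and -0.11. With values read as log2 the count was 5.

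Of the 14 sterol steps from ERG9 to ERG4, 10 had their highest aerated value at 5 min, against 16.4% of genes with 5 values. With the 60 min sample left out it was 12 of 14, against 27.2% of genes. With the 5 min ratio turned it was 0, and 3 of the 14 were lowest at 5 min. Their lowest value was at 20 min for 5 genes, at 60 min for 1 and at 120 min for 8. The shares of all genes lowest at these times are not given here, so these 3 counts only describe the 14 steps.

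Few of the 33 genes were 2-fold from the pool at any 1 time. At 5 min 1 was higher (CYB5) and 0 lower, against 1.08% and 1.01% of all genes, and at 10 min 0 were higher and 0 lower, against 2.20% and 2.76%. At 20 min 0 were higher and 2 lower (ERG11 and ARE1), against 2.24% and 2.50%. At 60 min 2 were higher (MVD1 and PRY2) and 2 lower (YEH2 and TGL1), against 11.4% and 12.9%, and at 120 min 0 were higher and 1 lower (ERG28), against 1.47% and 1.72%. In the self-hybridisation 0 of 24 were higher and 1 lower (ERG24), against 1.02% and 2.98%. With 0 to 2 genes each, none of these counts stands as a result about the sterol genes.

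**Figure D3:**
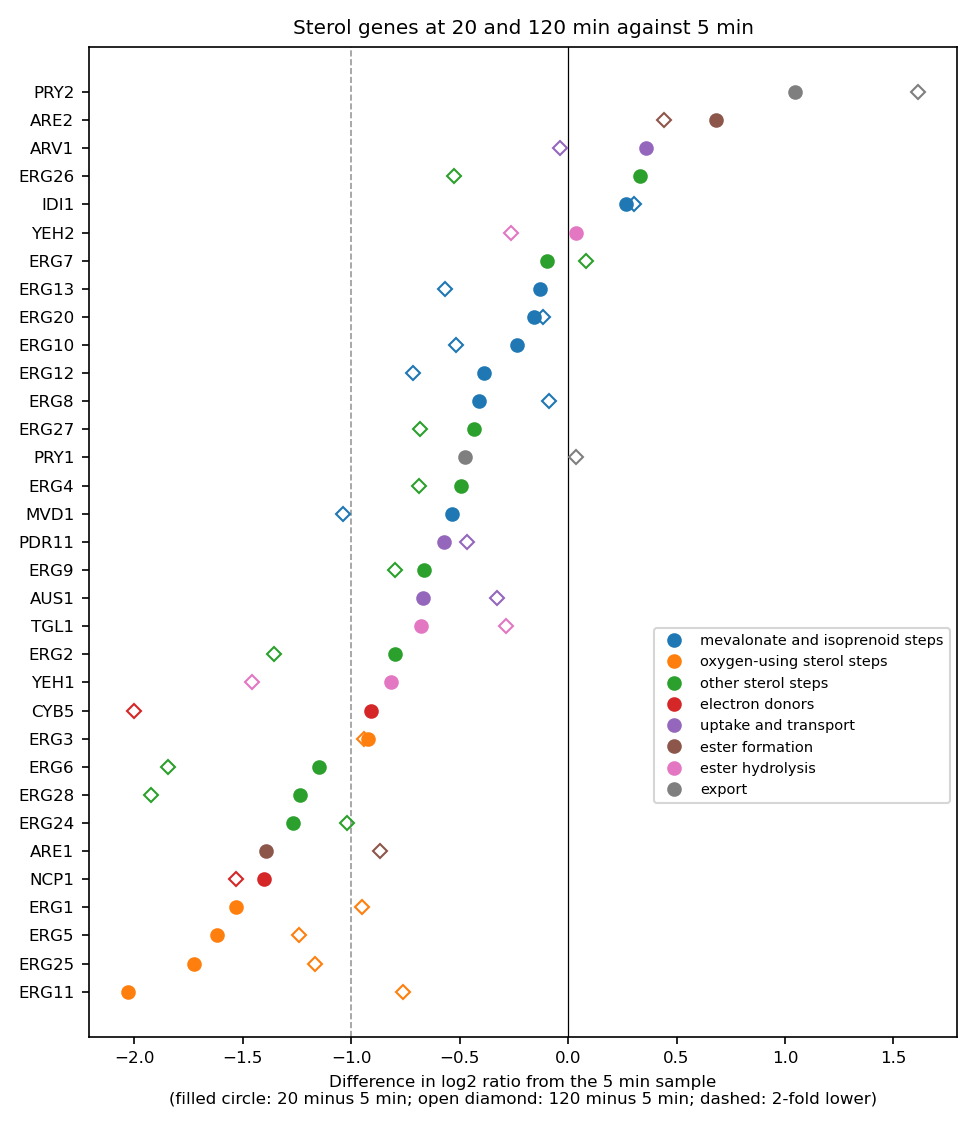
Difference in log2 ratio of each sterol gene from the 5 min sample, at 20 min (filled circles) and 120 min (open diamonds), coloured by role and ordered by the 20 min difference; each point is the difference of 2 single samples and the dashed line marks a 2-fold lower level. ERG11, ERG25, ERG5 and ERG1 take the 4 lowest places at 20 min, and PRY2 is highest at both times.

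Uptake and transport genes stayed close to the pool. AUS1, the sterol importer gene, was at 0.26, -0.31, -0.41, 0.38 and -0.07, all nearer to 0 than its self-hybridisation value of -0.61. PDR11, the second importer gene, was at 0.36, 0.52, -0.21, 0.34 and -0.10. ARV1, needed for sterol traffic from the endoplasmic reticulum, lay between -0.26 and 0.24 with no value at 60 min. None of the 3 was in the top or bottom 5% of genes at any time.

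The paired acyltransferase genes of ester formation took different courses. ARE1 had 0.28, -0.49, -1.11, 0.38 and -0.59, and ARE2, known as the main sterol acyltransferase of aerobic cells, had -0.55, -0.11, 0.13, 0.98 and -0.11. ARE1 minus ARE2 was 0.83 at 5 min and -0.38, -1.24, -0.60 and -0.48 afterwards. ARE1 was among the bottom 5% of genes at 20 min and ARE2 among the bottom 5% at 5 min. Neither had a self-hybridisation value.

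The steryl ester hydrolase genes were near or below the pool after 5 min. TGL1, whose product sits on lipid droplets, was at 0.04, -0.14, -0.64, -1.41 and -0.25, with 0.01 in the self-hybridisation. YEH2, whose product acts at the plasma membrane, was at 0.08, -0.05, 0.11, -1.26 and -0.19. The low values of both at 60 min were at least 2-fold below the pool, as were 12.9% of genes in that sample, and neither was in its bottom 5%. YEH1 had values at 3 times, 0.51 at 5 min, -0.31 at 20 min and -0.95 at 120 min, the last among the bottom 5% of genes.

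PRY1 and PRY2 encode secreted proteins that bind sterols and export their acetates. PRY1 was above the pool throughout, at 0.60, 0.68, 0.12, 0.41 and 0.63, beside -0.45 in the self-hybridisation. PRY2 was among the bottom 5% of genes at 5 min, at -0.81, and then at 0.51, 0.23, 2.10 and 0.80. Its 60 min value was the highest of any sterol gene in any sample and, like its 120 min value, among the top 5% of genes. PRY1 and PRY2 were thus on opposite sides of the pool at 5 min and on the same side later.

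**Figure D4:**
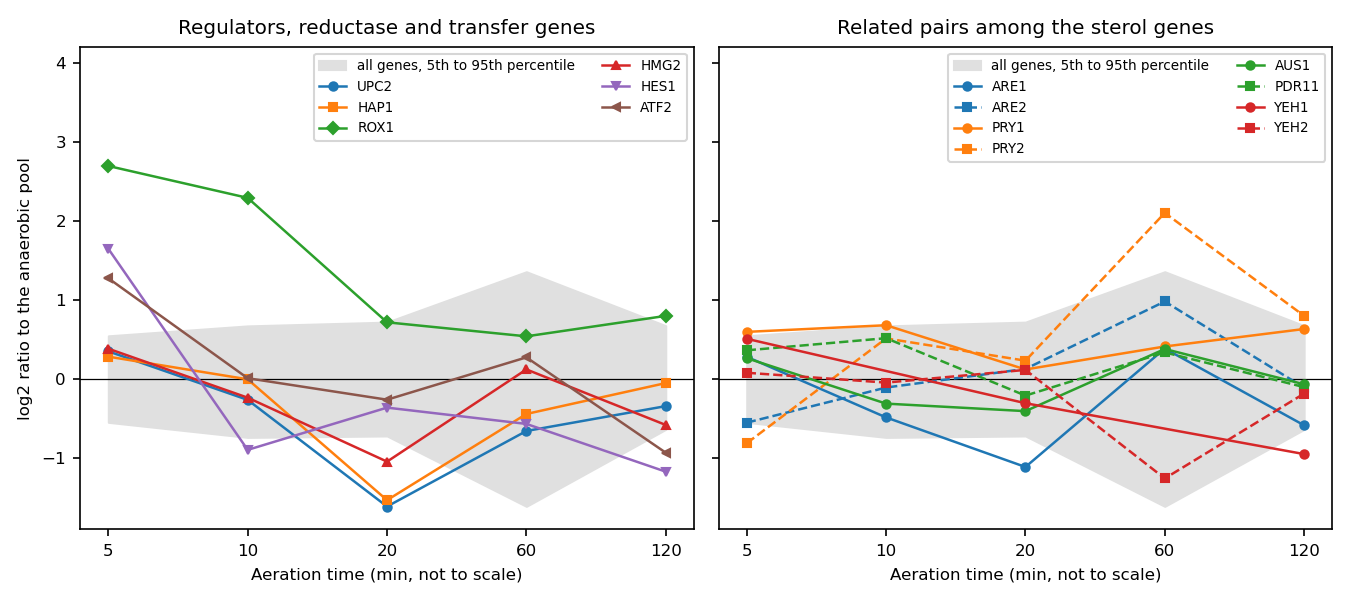
Log2 ratio to the anaerobic pool against aeration time for the 6 related genes at least 2-fold from the pool at a time other than 60 min (left) and for 4 pairs of sterol genes (right); each point is 1 sample, lines bridge missing values, and the grey band spans the 5th to 95th percentile of all genes. UPC2, HAP1 and HMG2 have their lowest values at 20 min, and ARE1 and ARE2 lie on opposite sides of 0 at 5 and 20 min.

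Across the 5 times, 0 of the 31 sterol genes with a full set of values passed an adjusted p of 0.05 in limma's test of the mean, of the slope on log2 of minutes or of the late (60 and 120 min) minus early (5 and 10 min) difference. The share of all 5771 genes tested that passed was 0%, 0.0173% and 0% in the 3 tests. At an unadjusted p under 0.05 the counts of sterol genes were 2, 4 and 3, which is 6.45%, 12.9% and 9.68% of them, against 14.1%, 2.79% and 3.60% of all genes. For the mean they were IDI1 at 0.59 ± 0.13 (SE, n = 5; limma adjusted p = 0.121) and PRY1 at 0.49 ± 0.14 (SE, n = 5; limma adjusted p = 0.171). IDI1 and PRY1 passed with array weights in limma, at adjusted p of 0.0103 and 0.0230, and the adjusted p over all alternatives ranged up to 0.505 and 0.680. The weighted fit called a larger share of all genes than of the sterol genes, with its count given below. These 2 passes are thus no result about the sterol genes. The weights, 0.154 at 60 min and 2.92 at 10 min, came from these same 5 times. A time that differs from the rest thus counts less. For the slope they were ERG28 at -0.36 ± 0.09, ERG6 at -0.33 ± 0.09, CYB5 at -0.36 ± 0.09 and PRY2 at 0.42 ± 0.16 per doubling of time (SE, n = 5; limma adjusted p = 0.936 for each). For late minus early they were ERG25, ERG28 and PRY2, at -1.17, -1.21 and 1.60 (limma adjusted p = 0.788 for each). Leaving out 1 time moved PRY2 most, its slope from 0.26 without 5 min to 0.74 without 120 min and its late minus early difference from 0.94 without 5 min to 2.26 without 10 min. The late minus early difference of ERG28 was -0.79 without 5 min. With the 5 min ratio turned the slopes of ERG28, ERG6, CYB5 and PRY2 were -0.13, -0.05, -0.02 and 0.16, and the late minus early differences of ERG25, ERG28 and PRY2 were -0.34, -0.50 and 0.79. The median slope of the 31 genes was -0.09, with 25 below 0, beside 0.004 over all genes, with 2790 of 5771 below 0. This count and those at an unadjusted p hold for the 5 min direction in the title. They are not given here with the 5 min ratio turned. A course that is high at 5 min and lowest at 20 min adds to the spread in the fits of the mean and the slope. In the late minus early fit the 20 min sample is a phase of its own, so its value adds no spread there.

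A list of 43 related genes of sterol control, sterol transfer and isoprenoid use, of which 42 were measured, was set beside the members, and 0 of the 41 tested passed in any of the 3 tests. At an unadjusted p under 0.05 the counts were 5, 4 and 2, which is 12.2%, 9.76% and 4.88% of the 41. The shares of all genes were 14.1%, 2.79% and 3.60%. Of the 42, 6 were at least 2-fold from the pool at a time other than 60 min, where 9.86% of all genes were. UPC2, the sterol-sensing activator, had 0.35, -0.27, -1.61, -0.66 and -0.34, and HAP1, the heme-responsive activator, had 0.28, 0.00, -1.53, -0.44 and -0.05. Both were lower at 20 min than ERG11. HMG2, one of a pair of HMG-CoA reductase genes of the mevalonate pathway, had 0.38, -0.24, -1.05, 0.12 and -0.58, and 0.67 in the self-hybridisation. Its partner HMG1, named after its values were seen, had 0.58, 0.47, 0.17, 0.43 and -0.04, and did not share the low value at 20 min.

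All 6 had their highest aerated value at 5 min, as did 16.4% of genes with 5 values. The 6 were kept by their size at times that include 5 min, ATF2 through its 5 min value alone. Their place at 5 min is thus partly set by that rule, and it would not hold with the 5 min ratio turned. The other 3 were at least 2-fold above the pool at 5 min. ROX1, the heme-induced repressor of hypoxic genes, had 2.69, 2.29, 0.72, 0.54 and 0.80. HES1, a sterol transfer protein gene, had 1.65 at 5 min and -0.90, -0.36, -0.57 and -1.17 afterwards. ATF2, which acetylates sterols before their export by the Pry proteins, had 1.27, 0.01, -0.26, 0.27 and -0.93. HES1 and ATF2 were thus at least 2-fold above the pool at 5 min, more than any of the 33 members, and had their lowest values at 120 min. ROX1, HES1 and ATF2 would be as far below the pool at 5 min if that ratio were turned.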

How the data were processed

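Gene expression was measured with 2-colour arrays in 6 samples, and the deposited values, normalized by the authors, were read as natural log ratios. Per the series' design text, the 11 arrays were condensed to 1 column per sample, with dye-swap pairs joined. How they were normalized, background-corrected or filtered is not given in the sources used here. The labels do not give the log base. The lowest value in the table, -4.6051702, equals the natural log of 0.01, so values were divided by 0.6931 to give log2. If they were log2, every value here would be smaller by that factor.

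Of 6495 features, 5754 had 1 gene symbol, 0 had several and 741 had none. All 5754 matched the R64 RefSeq table by gene identifier. Features of a gene were averaged (25 genes with 2), giving 6470 genes or unnamed features. No spot intensities were analysed here, so the brightness behind a ratio is unknown. Aerated samples had 5883 to 6292 genes with a value, the self-hybridisation 3521.

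limma 3.58.1 (R 4.3.3) was fitted to 5771 genes with 5 aerated values, two-sided, with Benjamini-Hochberg adjustment over all of them. The 5 aerated samples, each a different time, stood in for replicates. The SE thus includes change over time that a fit does not describe, and is not the error of repeated samples. The test of the mean leaves out the pool's own spread. Fits were tested on simulated data with added effects larger than any estimate given here for a sterol gene. That check does not show whether effects of the size seen would be called. Members, lists and named-gene rule (the oxygen-using steps, the donors and every member at least 2-fold from the pool at an aerated time in full, others by range and extremes; related genes where 2-fold at a time other than 60 min) were chosen with earlier results of these data known. Alternatives were leaving out each time, centring, scaling, array weights, missing values, the log base, 1 feature per gene and, added after seeing the data, the 5 min ratio turned. Promoter and protein sequences were not analysed here.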

Additional observations from a re-analysis of the deposited data

Results flagged for a closer look

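Among the 31 sterol genes with 5 aerated values, 2 had a value far from the nearest of the other 4, with a gap over 0.71 of the whole range. ERG7 at 60 min was at 0.58, with the nearest other value at 0.10, and YEH2 at 60 min was at -1.26, with the nearest at -0.19. Chance flags about 1 in 20 groups, and the 5 values are different times and not replicates. Both lie in the 60 min sample, whose spread over all genes was the widest of the 5, at 0.551; its part in these values was not tested.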

How the results depend on the processing

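For the mean, the count of genes past the threshold was 0 of 5771, and it was 65 with samples scaled, 6 with the 5 min ratio turned and 552 with array weights, where IDI1 and PRY1 were the members called. It ranged from 0 to 25 when 1 time was left out, with 25 without 60 min and 13 without 5 min. For the trend it was 1, and it was 0 with samples centred, 2 with samples scaled, 0 with array weights and 0 with 5 min turned. Leaving out 1 time gave 0 to 1, with 0 without 5, 10, 20 or 120 min. For late minus early it was 0, and leaving out 1 time gave 0 to 1099, with 3 without 5 min, 10 without 10 min and 1099 without 120 min. That last fit takes the 60 min sample alone as the late phase and assumes it to vary like the others. It called a larger share of all genes than of the sterol genes, so no sterol gene is named from it. Members at least 2-fold lower at 20 than at 5 min numbered 9, with 4 when values were read as log2 and 0 with 5 min turned. At 120 against 5 min they numbered 10, with 16 when samples were scaled, 5 read as log2 and 0 turned. Sterol steps highest at 5 min numbered 10, and 0 with 5 min turned. These counts and the turning were added after seeing the data. Role group medians and their differences, averaged over the times, moved by less than 1 SD over the times under every alternative run, but several changed sign or moved by over 1.5 times with 1 time left out. The estimates given for 7 single genes kept their sign throughout, but leaving out 1 time moved ERG28 late minus early from -1.21 to -0.79 without 5 min, and PRY2 by over 1.5 times without 5, 60 or 120 min. No paired analysis was possible because each time has 1 sample and the labels carry no replicate numbers. Depth cannot be judged without spot signals.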

Other observations

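Genes that draw on isoprenoids for other products than sterols stayed near the pool. Over 9 such genes, for ubiquinone, heme A, dolichol, protein prenylation and transfer RNA modification, the median log2 ratio was -0.03, -0.04, -0.05, 0.15 and -0.08 at 5, 10, 20, 60 and 120 min. SRT1, a dolichol synthesis gene, had the widest course of them, at 0.56, 0.01, -0.60, -0.81 and -0.73. Of the 15 sterol transfer genes with a value at 5 min, HES1 was the only one at least 2-fold from the pool then, and the other 14 lay between -0.33 and 0.31.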
